A study of Nicotiana tabacum with 20 samples.

Results

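Leaf RNA of tobacco (*Nicotiana tabacum*) plants of hairpin line 1 in the generation labelled T1 (HP1_T1) was compared with leaf RNA of plants transformed with the empty vector (C). The comparison used 8 of the 20 libraries of the series, chosen by their labels as all 4 of HP1_T1 and all 4 of C, and covered 24069 sequence features. HP1_T1 carried a construct in which the 35S promoter, active in most plant tissues, reads a sense and an antisense copy of a fragment of the Tnt1 reverse transcriptase separated by an intron, with an OCS terminator, hygromycin resistance and the reporter gene GUS. C carried the 35S promoter, the intron, the OCS terminator and hygromycin resistance without the fragment, and its label lists no GUS, though it too carries the word hairpin. Both groups are labelled as regenerants from transformation. The remaining 12 libraries served as points of comparison: 4 of hairpin line 8 in T1 (HP8_T1), 4 of the selfed progeny of HP1_T1 (HP1_T2), both with the hairpin construct, and 4 of wild type (WT). Plants of every group are labelled as 45 days old, from in vitro culture at 24 °C with 14 h of light and an antibiotic in the medium. HP1_T1 is a single line and the labels give C neither a line nor a generation, so the hairpin, the GUS reporter and the line or generation cannot be told apart in this comparison.

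Tnt1 is a retrotransposon of tobacco of the copia type, which copies itself through an RNA that its reverse transcriptase turns back into DNA. Its RNA is known to be scarce in unstressed leaves and to rise with wounding, microbial elicitors and tissue culture. A hairpin RNA is cut by Dicer-like enzymes into small interfering RNAs, which guide the silencing of RNAs that share its sequence. The empty vector serves to show what transformation and regeneration alone go with, and the comparison with it asks what the hairpin plants of line 1 show beyond that.

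Reads were counted on UniGene features, clusters of expressed sequence tags with 1 representative sequence each. The deposited tables hold identifiers without gene names, and 0 of 24069 matched the 79372 genes of the reference table. Tnt1, the transgene, gene families and leaf markers could therefore not be picked out, and features are described by length, level and pattern. Total gene reads were 1994983 to 2805529 per library in HP1_T1 and 2100788 to 2734037 in C. A single feature took most of them, and 406165 to 629063 reads remained outside it in HP1_T1, against 199341 to 293708 in C, so low features were measured with more error in C. Whether the 4 libraries of each group are 4 plants is not stated in the labels. P-values therefore measure the spread between these libraries, which may be technical.

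The most abundant feature, 625 bases long, took a smaller part of the reads in HP1_T1 than in C. It held 79.6%, 78.9%, 75.5% and 77.4% of gene reads in the 4 HP1_T1 libraries, against 90.5%, 90.0%, 88.1% and 89.0% in the 4 C libraries. The groups did not overlap, and their means were 77.9% ± 1.83 in HP1_T1 and 89.4% ± 1.09 in C (SD, n = 4 each; two-sided exact permutation p = 0.0286, the smallest that 4 libraries against 4 allow, and 0.0317 after Benjamini-Hochberg adjustment over 20 tests). Libraries with the same replicate number differed by −12.57 to −10.87 percentage points, so the sign was the same in 4 of 4 numbers. HP1_T1 overlapped the other hairpin groups, which averaged 76.2% ± 1.87 in HP8_T1 (exact permutation p = 0.257) and 78.7% ± 2.04 in HP1_T2 (exact permutation p = 0.571), and WT averaged 84.3% ± 1.71. The libraries stood in the same order of replicate number in all 5 groups for this share, so the spread within a group was not independent between groups. Within numbers HP1_T1 exceeded HP8_T1 by 1.506 to 1.87 percentage points, and its difference from HP1_T2 was −1.08 to −0.5042, each with 1 sign in 4 of 4 numbers. What the numbers stand for is not stated in the labels. The kind of RNA this feature stands for is unknown here.

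Reads outside that feature, called remaining reads here, were spread far more evenly over features in HP1_T1 than in C or in any other group. Within each library, the features were taken from the most read downwards until they held 50% of the remaining reads. This took 62, 63, 57 and 60 features in HP1_T1, against 14, 15, 12 and 13 in C. The means were 60.5 ± 2.65 in HP1_T1 and 13.5 ± 1.29 in C (SD, n = 4 each). The other hairpin groups stood close to C, with 16.5 ± 1.29 features in HP8_T1 and 13.25 ± 0.957 in HP1_T2, and WT had 6.5 ± 0.577. HP1_T1 lay above each of these 4 groups without overlap (two-sided exact permutation p = 0.0286, adjusted 0.0317 for each). This count reacts strongly to a single large feature: with the 2 most abundant features left out, an alternative added after seeing the data, it was 291 ± 7.54 in HP1_T1, 210 ± 3.20 in HP8_T1, 152 ± 2.38 in HP1_T2, 168 ± 4.32 in C and 64.0 ± 1.15 in WT. HP1_T1 still had the highest value, and the ratio to C was smaller than with that feature included.

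**Figure D1:**
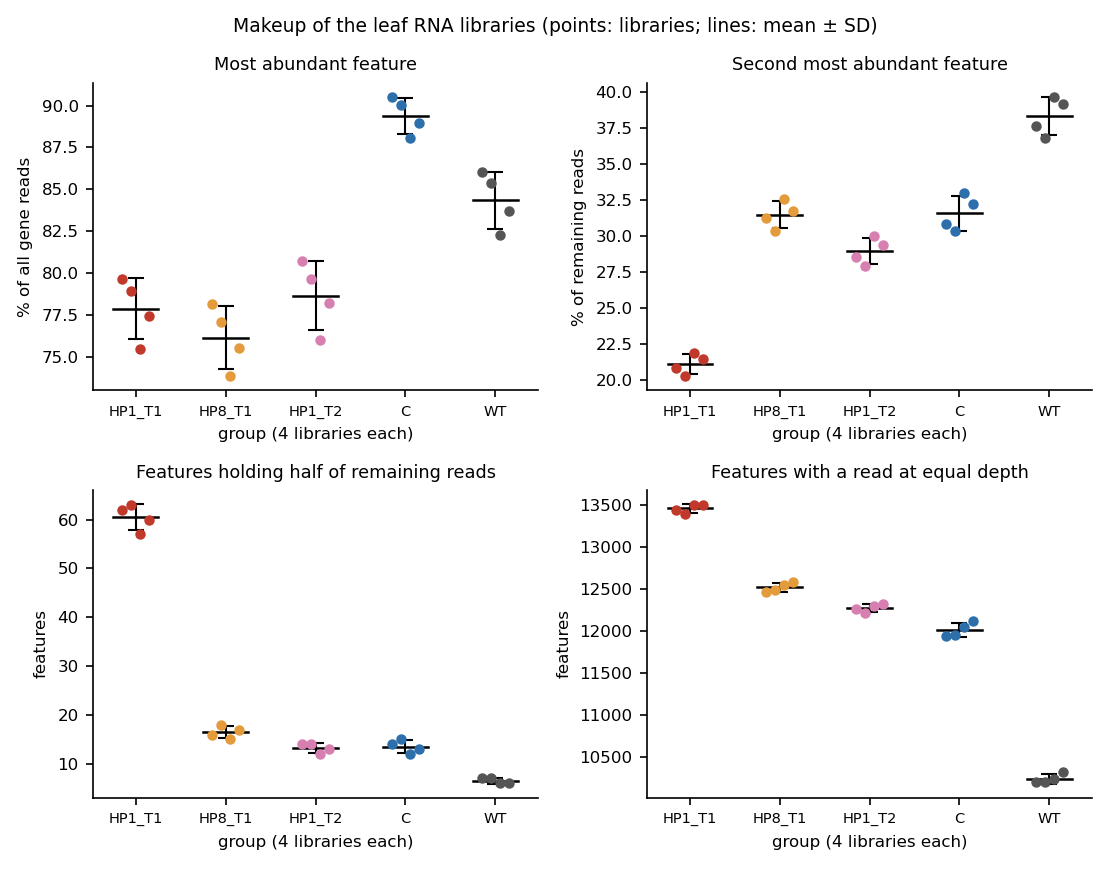
Makeup of the 20 libraries by group: the share of all gene reads in the most abundant feature, the share of remaining reads in the second most abundant feature, the number of features that hold 50% of the remaining reads, and the number of features with a read after thinning to equal depth. Points are libraries and lines are mean ± SD, the vertical axes do not start at 0, and HP1_T1 stands apart from all other groups in each panel except the first.

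**Figure D2:**
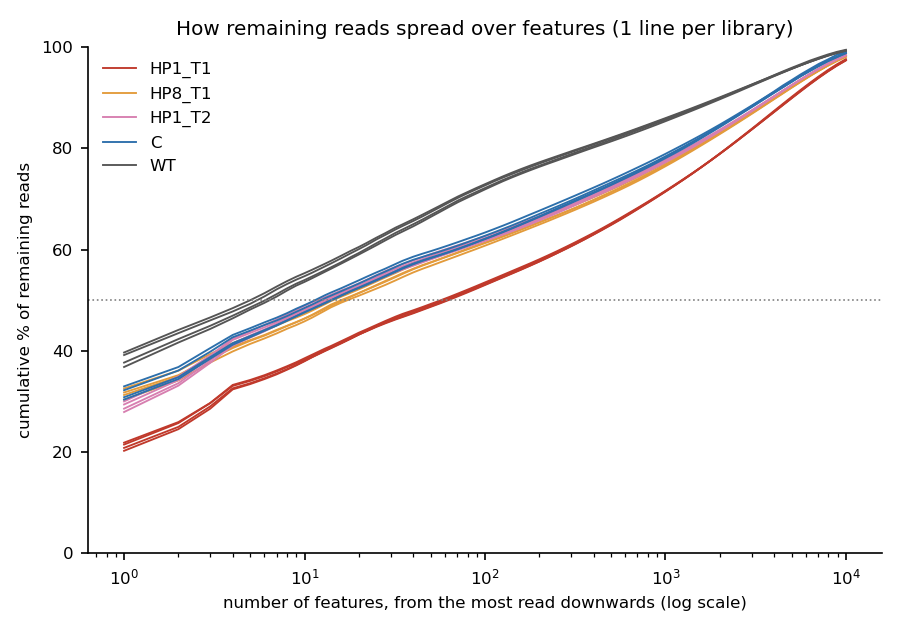
Cumulative percentage of remaining reads (vertical axis) against the number of features taken from the most read downwards (log scale), 1 line per library. The 4 HP1_T1 lines run together below all others and reach 50%, the dotted line, at 57 to 63 features, against 12 to 15 features for the 4 C lines.

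The largest differences were a lower share of the second most abundant feature and higher shares of features beyond rank 100. Shares of remaining reads add up to 100%, so a lower share of 1 feature by itself raises the others. These differences are therefore not independent of each other. The second most abundant feature, 868 bases long, took 20.8%, 20.3%, 21.9% and 21.5% of remaining reads in HP1_T1, against 30.8%, 30.4%, 33.0% and 32.2% in C. Its mean share of 21.1% ± 0.713 in HP1_T1 lay below 31.5% ± 0.915 in HP8_T1, 29.0% ± 0.920 in HP1_T2, 31.6% ± 1.21 in C and 38.3% ± 1.32 in WT, without overlap with any of them (SD, n = 4 each; exact permutation p = 0.0286, adjusted 0.0317 for each). Features ranked 3 to 10 held 16.1% ± 0.398 in HP1_T1 and 15.8% ± 0.516 in C, and those ranked 11 to 100 held 14.9% ± 0.119 in HP1_T1 and 14.3% ± 0.0855 in C. At the low end, features beyond the 1000 most abundant held 29.5%, 29.5%, 29.3% and 29.4% of remaining reads in HP1_T1, against 22.8%, 22.9%, 21.9% and 22.4% in C (exact permutation p = 0.0286, adjusted 0.0317). The 900 features between these ends held 18.5% ± 0.143 in HP1_T1 and 15.7% ± 0.246 in C.

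More features were detected in HP1_T1 than in C at the same depth. After each library was thinned to 199341 remaining reads, 13404 to 13508 features had a read in HP1_T1, against 11950 to 12118 in C. The means were 13465 ± 49.8 in HP1_T1 and 12019 ± 82.3 in C, without overlap (exact permutation p = 0.0286, adjusted 0.0317, n = 4 each). HP8_T1 had 12523 ± 53.9, HP1_T2 had 12277 ± 45.0 and WT had 10242 ± 57.2. With only the reads outside the 100 most abundant features thinned, to 77128, the means were 12643 ± 58.3 in HP1_T1 and 11962 ± 131 in C. The groups still did not overlap, but the difference shrank from 1446 to 680.5 features. HP8_T1 had 12349 ± 73.2, HP1_T2 had 12186 ± 75.5 and WT had 10909 ± 119 under this setting.

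Tested feature by feature, HP1_T1 differed from C in 2684 of 7126 features (37.7%), of which 1409 were higher (19.8%) and 1275 lower (17.9%). A call here is a Benjamini-Hochberg adjusted p under 0.05 in edgeR's quasi-likelihood test, in 1 fit of all 20 libraries with TMM scaling, which sets library sizes so that the bulk of features does not change. Among the higher features 1103 changed at least 2-fold, 414 at least 4-fold, 176 at least 8-fold and 99 at least 16-fold. Among the lower ones these counts were 804, 164, 37 and 9. Features that rose had a median log2 change of 1.53 (median SE 0.40), and features that fell one of −1.17 (median SE 0.28). The libraries of HP1_T1 and C did not overlap in 1186 of the features that rose and 970 of those that fell. Over all tested features the libraries did not overlap in 1365 that were higher (19.2%) and 1084 that were lower (15.2%).

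Together, the features that rose held 21.5% ± 0.323 of remaining reads in HP1_T1 and 9.28% ± 0.206 in C, and those that fell held 46.4% ± 0.458 in HP1_T1 and 65.9% ± 0.596 in C (SD, n = 4 each). These shares describe the calls and are no further test of them. Large rises were found mostly among features with few reads in C. The 99 features that rose at least 16-fold had a median of 57 reads over the 4 HP1_T1 libraries and 0 over the 4 C libraries, and 72 of them had no read in C. Their fitted fold changes therefore depend on how a count of 0 is handled. The 689 features that rose 2-fold to 4-fold had a median of 99 reads in HP1_T1 and 14 in C.

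**Figure D3:**
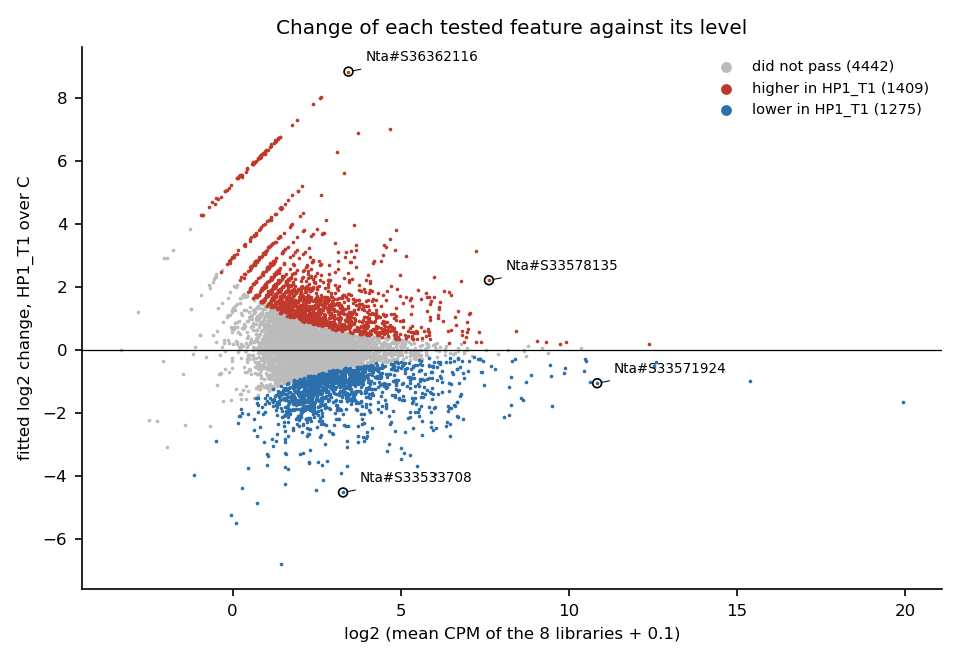
Fitted log2 change of HP1_T1 over C (vertical axis) against log2 of the mean CPM of the 8 libraries plus 0.1 (horizontal axis), 1 point per tested feature. Red points are the 1409 features that rose, blue points the 1275 that fell, circles mark the named features, and the red diagonal streaks are features with the same few reads in C, the topmost of which holds those with 0.

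The split between rises and falls depended on the scaling of the libraries. Rises made up 52.5% of the calls with TMM, where the median log2 change over everything tested was 0.083. They made up 57.9% when libraries were scaled by their reads outside the 100 most abundant features (median 0.16), 77.4% when scaled by remaining reads (median 0.47), and 97.7% with library totals (median 1.52). The counts were then 1587 higher and 1155 lower, 2542 and 744, and 5769 and 138. All 7 scalings tried called the 1409 rises, and 138 of the 1275 falls, the same way, while 367 features changed from one direction to the other. The median lay higher under each alternative than under TMM, which by itself keeps rises and loses falls, so the numbers kept say nothing of which direction is more secure.

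Falls outnumbered rises among abundant features on the TMM scale, and rises outnumbered falls among scarce ones. Of the 90 features ranked 11 to 100 by mean level over all libraries, 21 were higher and 55 lower in HP1_T1 than in C, though library totals turned this to 60 higher and 24 lower. Of the next 900, down to rank 1000, 227 were higher and 332 lower with TMM, but 421 and 217 with scaling by remaining reads, and 751 and 54 with library totals. Of the 4126 beyond rank 3000, 795 (19.3%) were higher and 442 (10.7%) lower, and rises outnumbered falls there under all 7 scalings. The filter on low counts mattered too, as rises made up 61.1% of all calls without it and 50.8% with a minimum count of 30. A given read count stands for a lower CPM in HP1_T1 (TMM-scaled library sizes 2994168 to 4600875) than in C (1140738 to 1609934). Whether the filter favours rises among scarce features was not tested. The share of features called higher differed little, at 18.2% to 25.2% in the 4 classes beyond rank 10. In calls, the classes thus differed mainly in their share of falls. The median SE of the log2 change was 0.0867 for ranks 11 to 100 and 0.447 beyond rank 3000. Small changes were therefore called less readily among scarce features, and shares of calls do not compare the sizes of change between classes. Among features ranked 2 to 10, 8 were lower and 1 was higher with TMM, and all 9 were higher with library totals. By length, among the 1787 shortest tested features (112 to 802 bases) 20.5% rose and 16.8% fell, and among the 1766 longest (928 to 6090 bases) 21.7% rose and 22.5% fell. Long features were more often abundant, and within classes of abundance the shares that fell lay closer together. Beyond rank 3000, 11.1% of the shortest and 11.8% of the longest features fell. In the class of 2000 features above it these shares were 23.1% and 21.3%, and in the class of 900 above that 36.5% and 38%.

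Some of the most abundant features were lower in HP1_T1 than in each of the other 4 groups on the TMM scale. The feature ranked second (868 bases) averaged 28700 ± 1120 CPM in HP1_T1, against 52800 ± 2100 in HP8_T1, 48800 ± 2030 in HP1_T2, 56300 ± 3210 in C and 109000 ± 6700 in WT (SD, n = 4 each). CPM are normalised read counts on the TMM-scaled library size. The log2 change of this feature against C was −0.97 (SE 0.05, edgeR adjusted p 3.39e-35) with TMM but 0.48 with library totals. Tested directly, HP1_T1 was lower than HP8_T1 by a log2 difference of −0.88 (edgeR adjusted p 1.05e-31) and than HP1_T2 by −0.77 (adjusted p 2.43e-27). A feature of 544 bases, ranked seventh, averaged 1030 ± 44.1 CPM in HP1_T1, 1740 ± 65.6 in HP8_T1, 2010 ± 94.1 in HP1_T2, 2090 ± 106 in C and 4580 ± 204 in WT, with a log2 change against C of −1.02 that library totals turn to 0.43. The exception among the 9 features of ranks 2 to 10 was the fifth, of 543 bases, at 5670 ± 99.5 CPM in HP1_T1, 3680 ± 95.4 in HP8_T1, 5790 ± 208 in HP1_T2, 4900 ± 171 in C and 3730 ± 376 in WT. It was higher in HP1_T1 than in C under all 7 scalings, with a log2 change of 0.21 with TMM (SE 0.05, edgeR adjusted p 0.000852).

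A pair of features that rose is named, taken from those whose libraries did not overlap and that averaged 20 reads or more in HP1_T1: the one with the largest fitted change, and the one with the most reads among those at least 2-fold higher. Nta#S36362116 (846 bases) had 66, 103, 96 and 80 reads in the HP1_T1 libraries and 0 in each of the 4 C libraries. With C set at 3 reads over its 4 libraries, the pooled level was at least 41.6-fold higher in HP1_T1 (edgeR adjusted p 5.94e-22), a bound that covers counting error only. Its level was 21.5 ± 1.60 CPM in HP1_T1, 23.7 ± 1.39 in HP8_T1 and 13.4 ± 1.97 in HP1_T2, and WT had 3 reads in 1 of 4 libraries. Set against HP8_T1 the log2 difference of HP1_T1 was −0.14 (SE 0.14, edgeR adjusted p 0.461) and did not pass, and HP1_T1 was higher than its progeny HP1_T2 by 0.69 (SE 0.17, adjusted p 0.000509).

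Nta#S33578135 (1500 bases) had 1026, 1370, 1563 and 1211 reads in HP1_T1, against 84, 109, 110 and 98 in C. Every HP1_T1 library exceeded every C library, at 299 to 343 CPM in HP1_T1 and 65.3 to 73.6 CPM in C. The log2 change was 2.22 (SE 0.09, edgeR adjusted p 4.12e-40), and it stayed positive under all 7 scalings. The feature averaged 324 ± 21.1 CPM in HP1_T1, 195 ± 9.53 in HP8_T1, 234 ± 5.13 in HP1_T2, 69.4 ± 3.48 in C and 77 ± 12.1 in WT. The log2 difference of C from WT, −0.15 (SE 0.10, edgeR adjusted p 0.259), did not pass the threshold. It was higher in HP1_T1 than in HP8_T1 by 0.73 (adjusted p 4.86e-15) and than in HP1_T2 by 0.47 (adjusted p 1.16e-07) on the log2 scale.

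A pair of features that fell was chosen in the same way, with the minimum of 20 reads applied to C. Nta#S33533708 (826 bases) had 1, 4, 2 and 5 reads in HP1_T1, against 28, 26, 27 and 24 in C. The log2 change was −4.52 (SE 0.30, edgeR adjusted p 3.57e-24), and it stayed negative under all 7 scalings. The C level of 18.5 ± 4.04 CPM was itself far below the 518 ± 26.3 CPM of WT, a log2 change of −4.83 (SE 0.12, edgeR adjusted p 2.35e-57). HP8_T1, at 0.738 ± 0.368 CPM, lay near the 0.729 ± 0.421 CPM of HP1_T1, and HP1_T2 had 4.88 ± 2.21. The log2 difference of HP1_T1 from HP1_T2 was −2.66 (edgeR adjusted p 6.98e-09).

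Nta#S33571924 (887 bases), the sixth in abundance, had 3565, 5470, 5360 and 4728 reads in HP1_T1, against 2802, 4047, 3938 and 3515 in C. Its raw counts were thus higher in HP1_T1, while its level was lower there at 1190 ± 38.5 CPM, against 2460 ± 109 in C. The log2 change was −1.05 (SE 0.06, edgeR adjusted p 1.45e-30) with TMM, and 0.41 with library totals, which reverses it. HP8_T1 at 2340 ± 120 and HP1_T2 at 2520 ± 143 CPM stood near C, and WT at 5480 ± 326 CPM stood above all. Against C, HP8_T1 changed by −0.07 (SE 0.06, edgeR adjusted p 0.294) and HP1_T2 by 0.03 (SE 0.06, adjusted p 0.700) on the log2 scale, and neither passed. HP1_T1 was lower than HP8_T1 by a log2 difference of −0.97 (adjusted p 3.05e-28) and than HP1_T2 by −1.08 (adjusted p 2.11e-30).

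**Figure D4:**
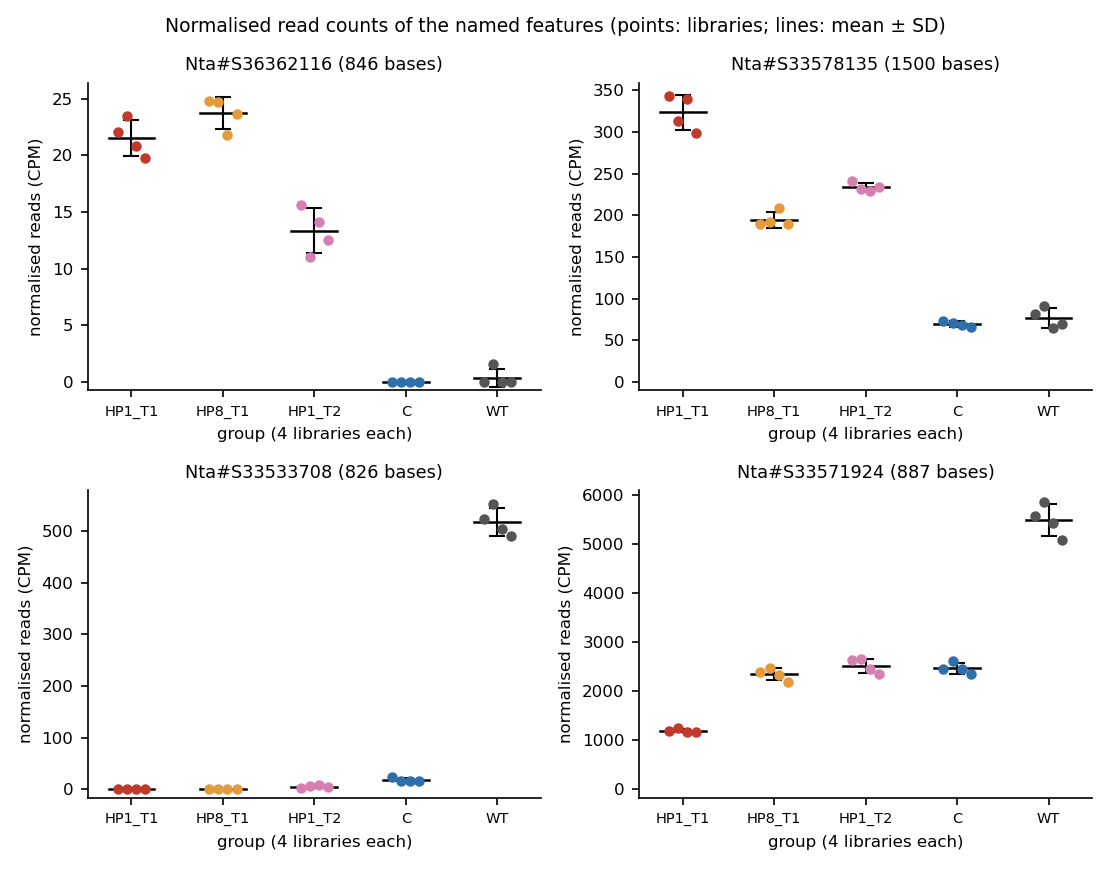
Normalised read counts (CPM, linear axis) of the 4 named features in the 5 groups. Points are libraries and lines are mean ± SD. Nta#S36362116 was at 0 in all C libraries, Nta#S33578135 was highest in HP1_T1, Nta#S33533708 was highest in WT, and Nta#S33571924 was lowest in HP1_T1 on this scale.

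The named ones included, 785 features rose and 439 fell without overlap between libraries and with 20 reads or more on average in the group where they were higher. A mean of 20 reads stands for a higher CPM in C than in HP1_T1, so this minimum removes falls more readily than rises. Before it, 1186 rises and 970 falls had no overlap. The 10 of these with the largest fitted rises had 81 to 810 reads over the 4 HP1_T1 libraries and 0 to 2 in C, and 8 of them had 0 in C. WT had 0 to 42 reads of these features, HP8_T1 6 to 754 and HP1_T2 5 to 144. The 10 with the largest falls formed a graded pattern, with 12 to 125 reads over the HP1_T1 libraries, 100 to 695 in C and 973 to 6418 in WT. HP8_T1 had 1 to 90 reads of these features and HP1_T2 29 to 213. All of these are raw sums over groups of unlike depth. Called by edgeR in the same fit, all 10 of these falls were lower than WT in HP1_T1, HP8_T1 and HP1_T2 alike, beside 24.4%, 25.2% and 24.5% of all tested features in those groups. Of the 10 rises, 10 were higher than WT in HP1_T1, 8 in HP8_T1 and 7 in HP1_T2, beside 29.9%, 29.4% and 27.8%. The features were chosen on the HP1_T1 libraries, which by itself favours a call of HP1_T1 against WT. The counts for HP1_T1 are thus a description of the choice.

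Reads present in 1 group and missing in the other were found in 1 direction. With 0 reads in all 4 C libraries and at least 10 in each HP1_T1 library there were 24 features, and with the opposite arrangement 0. These 24 features, 522 to 1415 bases long, had a median of 72 reads over the HP1_T1 libraries. All 24 had a read in HP8_T1, 23 in HP1_T2 and 16 in WT, so none of them was read in HP1_T1 alone. Their median over 4 libraries was 32 reads in HP8_T1, 28.5 in HP1_T2 and 2.5 in WT. HP1_T1 had 2175175 remaining reads in all, against 1034899 in C. With each HP1_T1 library thinned to the remaining reads of the C library of the same number, an alternative added after seeing the data, 4 to 5 features met the first condition in each of 20 draws, and the opposite arrangement still had 0.

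Set beside wild type in the same fit, the features that differed from C fell into 3 kinds. The contrasts share libraries, so these counts describe where HP1_T1 stood among the 3 groups and are not overlaps of independent lists. Of the 1409 features higher than C, 841 were also higher than WT (11.8% of tested features), 477 were not called against WT, and 91 were lower than WT. Of the 1275 features lower than C, 810 were also lower than WT (11.4% of tested features), 373 were not called against it and 92 were higher. Of all tested features, 54.3% differed between HP1_T1 and WT, with 29.9% higher and 24.4% lower in HP1_T1. Between C and WT 40.6% differed, with 19.6% higher and 21% lower in C. In the 841 features the median log2 change of HP1_T1 was 1.60 against C and 1.73 against WT, and that of C against WT was 0.05. In the 810 features these medians were −1.31, −1.68 and −0.49.

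The second kind was not called between HP1_T1 and wild type. Being called against C and not against WT fixes most of the values that follow, which are given as a description of the sets. In the 477 features higher than C and not called against WT, the median log2 change of HP1_T1 was 1.5 against C and 0.20 against WT, and C lay below WT by a median of −1.26. In the 373 lower features these medians were −1.06 against C and −0.07 against WT, with C above WT by a median of 1.05. Such features held few reads, 2.84% ± 0.0479 of remaining reads in HP1_T1 and 1.01% ± 0.0349 in C for the first set, and 2.46% ± 0.0353 in HP1_T1 and 3.35% ± 0.0701 in C for the second (SD, n = 4 each).

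The features that changed in HP1_T1 against C tended to lie the same way in the other hairpin groups. The comparisons of HP8_T1 with WT and of HP1_T2 with WT share no library with that of HP1_T1 with C. They do share the fit, its filter and its TMM scaling. The TMM factors were 0.5041 to 0.6582 in the WT and C libraries and 1.16 to 1.823 in the hairpin libraries. A choice of scaling thus moves all 3 comparisons the same way, and the counts were not repeated under the other scalings. Of the 1409 features higher in HP1_T1 than in C, 644 (45.7%) rose and 190 (13.5%) fell in HP8_T1 against WT, beside 29.4% and 25.2% of all tested features (54.6% in either direction). The 644 made up 30.8% of all features higher in HP8_T1 than in WT, while the 1409 made up 19.8% of tested features. In HP1_T2 against WT, 575 (40.8%) were higher and 220 (15.6%) lower, beside 27.8% and 24.5% (52.3% in either direction). Of the 1275 features lower in HP1_T1 than in C, 695 (54.5%) fell and 169 (13.3%) rose in HP8_T1 against WT, and 672 (52.7%) were lower and 175 (13.7%) higher in HP1_T2 than in WT. The 695 made up 38.7% of the features lower in HP8_T1, and the 672 made up 38.5% of those lower in HP1_T2. The 1275 made up 17.9% of tested features. Features with many reads are called more readily in any comparison, which raises such shares in both directions.

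**Figure D5:**
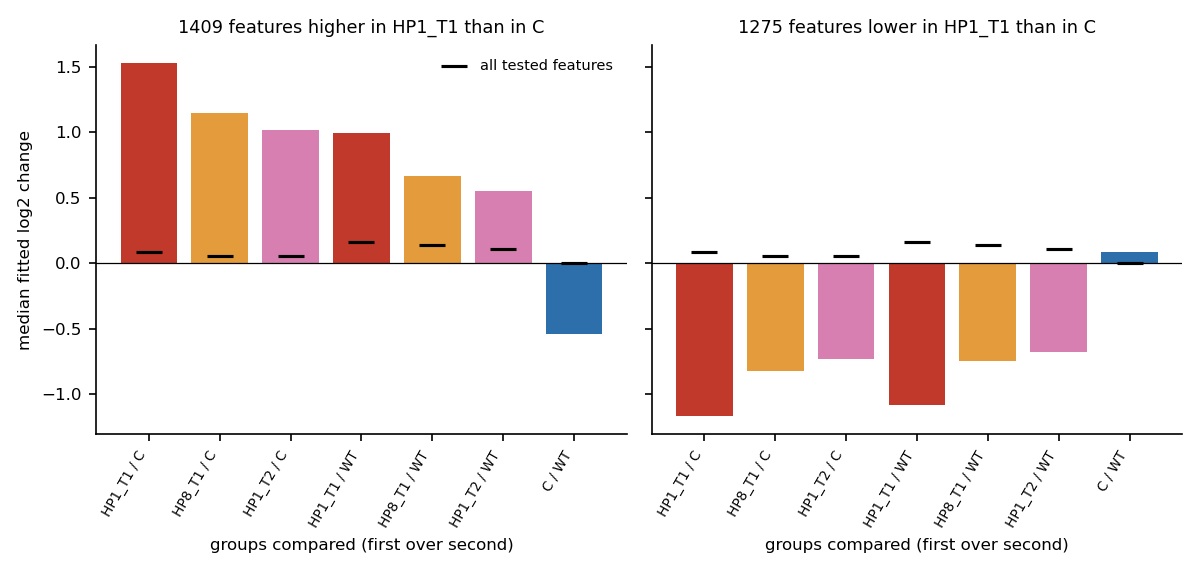
Median fitted log2 change (vertical axis) of the 1409 features higher (left) and the 1275 lower (right) in HP1_T1 than in C, in 7 comparisons, with the median of all tested features as a black dash. The first bar in each panel is the comparison that chose the features, and bars that share C or HP1_T1 with it are not independent of it.

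Sizes of change against the same C libraries are given side by side because they share those libraries. In the 1409 higher features the median log2 change against C was 1.53 in HP1_T1, 1.15 in HP8_T1 and 1.02 in HP1_T2. In the 1275 lower features it was −1.17, −0.83 and −0.73 in the same order. The features were chosen on HP1_T1, which by itself favours a larger change there. Over all tested features, 41.3% differed between HP8_T1 and C (21.8% higher, 19.4% lower) and 33.4% between HP1_T2 and C (17.2% higher, 16.2% lower). Tested directly, 509 (36.1%) of the higher features were higher and 175 (12.4%) lower in HP1_T1 than in HP8_T1, beside 20.3% and 20.7% of all tested features (41% in either direction). Against the progeny HP1_T2, 549 (39%) were higher and 74 (5.25%) lower in HP1_T1, beside 17.4% and 16.9% (34.3% in either direction). Of the lower features, 493 (38.7%) were lower and 173 (13.6%) higher in HP1_T1 than in HP8_T1, and 514 (40.3%) were lower and 80 (6.27%) higher than in HP1_T2. These counts share the HP1_T1 libraries with the choice of the features and are a description.

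A smaller number of features set HP1_T1 apart from every other group. With TMM there were 195 features (2.74% of those tested) higher in HP1_T1 than in each of HP8_T1, HP1_T2, C and WT, and 241 (3.38%) lower than in each. These counts were not repeated under the other scalings. With library totals only 105 features were lower than both C and WT, so no more than 105 could be lower than all other groups there. The 195 had a median level of 11.1 CPM in HP1_T1, 5.02 in HP8_T1, 5.08 in HP1_T2, 3.88 in C and 3.19 in WT. The 241 had 7.04 CPM in HP1_T1, 14.0 in HP8_T1, 13.0 in HP1_T2, 15.7 in C and 26.5 in WT.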

How the data were processed

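Per the labels' protocols, leaf RNA was extracted with lithium chloride and sequenced as SOLiD total RNA libraries. No source used here names the aligner or the reference build. The authors deposited read counts per feature, as total and as unique gene reads, with feature lengths, per the file headers. The 2 tables were joined by feature ID, and their WT columns were identical. Total gene reads were used, of which 99.0% to 99.7% were unique in HP1_T1 and C.

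All 20 libraries were fitted with edgeR 4.0.16 in R 4.3.3 (filterByExpr with a minimum count of 10, TMM, no covariate besides group, quasi-likelihood test, Benjamini-Hochberg adjustment over 7126 features). The common biological coefficient of variation was 8.90%. DESeq2 1.42.0 was an alternative. Measures with 1 value per library were tested by exact two-sided permutation (Python 3.11.15). Thinning used 20 draws. Libraries of 1 group differed by more than counting noise in 12 pairs (chi-square over degrees of freedom 1.25 to 2.69), and each was counted. Such an excess cannot tell separate plants from repeat libraries of the same RNA. On simulated counts for HP1_T1 against C (5983 features after filtering, 200 changed), the fit recovered 52% of 2-fold and 88% of 4-fold changes, and 0.709% of its calls were false. The simulation changed far fewer features than the 37.7% called in the data. Its share of false calls therefore cannot be carried over to those calls or to the choice of scaling.

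Named features had to pass the threshold, not overlap between the groups, and average at least 20 reads in the higher group. From these, the largest fitted change and the most reads at 2-fold or more were taken in each direction, leaving out the most abundant feature. The members, rules and lists were chosen with earlier results of these data known. No sequence of the features was at hand, so none is printed.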

Additional observations from a re-analysis of the deposited data

Results flagged for a closer look

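Among the named features and library measures, in 3 of 45 groups of 4 libraries checked, 1 library lay far from the others, and chance alone gives about 1 in 20. For Nta#S36362116 in WT the gap of that library was the whole range (1.0), because 3 reads fell in 1 WT library and 0 in the other 3. For Nta#S33578135 in HP8_T1 the gap was 0.859 of the range, and for Nta#S33533708 in C it was 0.91, from 1 C library at 24.5 CPM with the lowest at 16 CPM.

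The change against C differed between HP1_T1 and another hairpin group in 6 direct tests by edgeR (adjusted p under 0.05). For HP1_T1 minus HP1_T2 the log2 difference was 0.695 for Nta#S36362116, 0.466 for Nta#S33578135, −2.66 for Nta#S33533708 and −1.08 for Nta#S33571924. For HP1_T1 minus HP8_T1 it was 0.73 for Nta#S33578135 and −0.972 for Nta#S33571924. Against HP8_T1, Nta#S36362116 (edgeR adjusted p 0.461) and Nta#S33533708 (edgeR adjusted p 0.968) did not pass. The named features were chosen on HP1_T1 against C, which by itself favours a larger change in HP1_T1. The direct tests used TMM scaling and were not repeated under the other scalings. Summed reads of Nta#S33571924 were 19123 in HP1_T1, 32074 in HP8_T1 and 27346 in HP1_T2. The remaining reads of these groups summed to 2175175, 2295259 and 1827795. As a part of remaining reads, this feature was thus lower in HP1_T1 than in both other hairpin groups without TMM too.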

How the results depend on the processing

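Scaling moved the counts of HP1_T1 against C most. Library totals gave 5769 higher and 138 lower features, and 5155 higher and 105 lower than both C and WT. Totals outside the most abundant feature gave 2542 and 744, and 2289 and 364. Nta#S33571924 changed sign with library totals (log2 change 0.407), while the other named features kept direction and call under every alternative run. The remaining scalings, DESeq2's test, unique reads and the 8-library or 12-library fits kept each count within 1.5 times. DESeq2's test gave 1280 higher and 1126 lower. Without a filter 2764 features were higher, and 1627 higher than both; with a minimum count of 30, 628 were higher and 609 lower, and 426 and 446 against both, from the 2277 features then tested. Leaving out 1 HP1_T1 or C library gave 1283 to 1432 higher, 1139 to 1264 lower, 803 to 846 higher than both and 738 to 798 lower than both. It left the share differences at −12.1 to −10.72, −10.9 to −10.03 and 6.734 to 7.035 percentage points, and the feature counts at 46.17 to 48.17 and 1423 to 1479. Features with reads in HP1_T1 and 0 in C, 0.0997% of all features, made up 0.503% at a minimum of 5 reads and 0.0172% after thinning. Same-numbered libraries of HP1_T1 and C deviated together by a correlation of 0.022 to 0.028 across features, and each correlated best with its own number in 4 of 4 cases. Counting error in low features lowers such a correlation, so its size cannot decide whether the numbers are pairs. The shares of both most abundant features ordered the numbers alike in 5 of 5 groups. The main fit did not take the numbers as pairs. With the replicate number as a block, 1430 features were higher and 1283 lower (845 and 817 against both). The SE then fell from 0.056 to 0.023 for Nta#S33571924 and from 0.088 to 0.069 for Nta#S33578135. It rose from 0.64 to 0.65 for Nta#S36362116 and from 0.304 to 0.311 for Nta#S33533708. The 5 library measures kept their values, at the smallest exact p that 4 pairs allow, which cannot pass the threshold. In C, depth limits what can be called absent.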
